A study of Mus musculus with 32 samples.

Results

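The genes described here are 10 genes of the NRF2 and glutathione antioxidant system of the mouse: Gclc, Gclm, Gsr, Gpx1, Gpx2, Txnrd1, Prdx1, Srxn1, Nqo1 and Hmox1. They were taken by name as genes of this system, with earlier results of these data known, and no measured value entered the rule itself. All 10 were listed among the 23517 genes of the count table, and all 10 passed the filter on low counts in every comparison given here.

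The counts came from Lgr5-EGFP+ cells, the stem and progenitor cells of the crypt, sorted from colonoids, which are epithelial organoids grown from crypts of the proximal colon. The study asked how muscarinic activation by bethanechol (Bch), a non-selective agonist of muscarinic acetylcholine receptors, acts on these cells. Each of 8 mice gave an untreated sample and a sample kept with 250 nM Bch, renewed daily for 4 days. Every sample was sequenced as 2 technical replicates, so that 32 libraries made 16 samples.

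All mice were Lgr5-EGFP-IRES-CreERT2, so that EGFP and an inducible Cre are driven from the Lgr5 locus and the sort follows Lgr5 activity, and all colonoids were grown in L-WRN medium. The mice formed 2 sets of 4, each with an untreated and a Bch-treated group. Mice BR1 to BR4 were labelled male, with sorted Lgr5+ cells as the source and the RNeasy Plus Micro kit for the RNA. Mice BR7 to BR10 carried no sex in their labels, with colonic organoids as the source and the RNeasy Mini kit. By the design text, 4 of the 8 mice were female and 4 were male. The sets are therefore called BR1-BR4 and BR7-BR10, since sex, source and kit cannot be told apart between them. The ages of the mice were not given in the sources used here. Colonoids lack the nerves, immune cells and stroma of the colon.

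NRF2, encoded by Nfe2l2, is a transcription factor that is held at low levels by KEAP1, which hands it to an ubiquitin ligase for degradation. Oxidants and electrophiles block this hand-over, and NRF2 then binds antioxidant response elements, short DNA motifs near genes that make and recycle glutathione and thioredoxin or detoxify quinones and haem. In the gut epithelium, glutathione peroxidases of this system, Gpx2 in particular, are known for clearing hydroperoxides in crypt cells.

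The samples held 557512 to 4050342 UMIs, with untreated BR3 the shallowest, and 3 UMIs, the limit that a count of 0 allows, corresponded to 0.722 to 5.08 CPM, where CPM are UMIs scaled to a common total per sample after TMM normalization, as for all levels below. UMIs are molecule tags counted once per library near the 3′ end of a transcript, so that levels do not grow with transcript length. The technical replicates agreed more closely than independent draws for most genes, and whether molecules were counted in both was not tested. The limits cover counting error only, take the summed UMIs as independent and would be too low where molecules were counted in both. For most samples 3000 cells were sorted, with a range from 2361 for untreated BR3 to 13114 for untreated BR1. The stem cell marker Lgr5 was present in every sample, at 12.6 to 39.1 CPM. The summed level of 13 crypt stem cell markers was 747 to 803 CPM in untreated BR7-BR10 and 938 to 1069 CPM in untreated BR1-BR4. The summed level of 13 colonocyte markers was 1818 to 2688 CPM in untreated BR7-BR10 and 1428 to 2180 CPM in untreated BR1-BR4. Of 10 fibroblast and muscle markers only 4 were in the table, with a summed level of 0.617 to 9.06 CPM.

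The promoters of these genes are shown first because NRF2 acts through them. RefSeq promoters, 250 bases before to 50 bases after a start site of GRCm38.p6, were at hand for 7 of the genes as 9 promoters, 3 of them of Txnrd1, and Gclc, Gsr and Hmox1 had no entry. The core letters of the antioxidant response element, TGACNNNGC, searched on both strands, were found in 4 of the 9 promoters, of Gclm, Prdx1, Srxn1 and Txnrd1, against 12.4% of all 32851 promoters. The letters TGANTCA of the related AP-1 motif, which read the same on both strands and were added after the first search, were found in 2 of the 9, of Prdx1 and Srxn1, against 7.81% of all promoters. The windows below hold the matches upstream of the start site in capitals with up to 20 bases on either side, 5′ to 3′ on the plus strand, on which all 4 genes lie. The Gclm window lies at chr3:122245403-122245451, the Prdx1 windows at chr4:116685349-116685388 and chr4:116685446-116685494, the Txnrd1 window at chr10:82859094-82859142 and the Srxn1 windows at chr2:152105402-152105448 and chr2:152105459-152105505.
Gclm: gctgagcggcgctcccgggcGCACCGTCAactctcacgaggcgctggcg
Prdx1, distal: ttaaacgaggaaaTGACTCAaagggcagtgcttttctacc
Prdx1, proximal: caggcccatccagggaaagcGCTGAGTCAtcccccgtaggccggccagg
Txnrd1: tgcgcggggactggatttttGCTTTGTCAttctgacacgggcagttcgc
Srxn1, distal: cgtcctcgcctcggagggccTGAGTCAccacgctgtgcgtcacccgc
Srxn1, proximal: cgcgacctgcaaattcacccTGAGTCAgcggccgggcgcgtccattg
In Gclm, Prdx1 and Txnrd1 the antioxidant response element letters lie on the opposite strand, and in the proximal Prdx1 window the 2 motifs overlap. The antioxidant response element match of Srxn1 lies after the start site and is not shown. A match of letters is a description of the sequence and no evidence of binding.

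Without Bch, the 10 genes spanned expression ranks from 13 to 9326 in these cells. Prdx1, which encodes a peroxiredoxin that reduces hydrogen peroxide, had a mean level of 4673 ± 688 CPM (SD, n = 8) and ranked 13 among all genes. Gpx2, the glutathione peroxidase of the gut epithelium, followed at 4631 ± 413 CPM and rank 14. These 2 genes were 45.1% and 44.7% of the summed level of the 10, and Prdx1 was above Gpx2 in 4 of 8 mice. Gpx1, the ubiquitous glutathione peroxidase, was far lower at 499.9 ± 46.6 CPM, and Gclm, the modifier subunit of glutamate-cysteine ligase, had 208 ± 30.0 CPM. Nqo1, a quinone reductase, had 128 ± 18.8 CPM, Gsr, glutathione reductase, 98.3 ± 16.6 CPM and Txnrd1, cytosolic thioredoxin reductase, 84.1 ± 23.2 CPM. The ranges of Nqo1 and Gsr overlapped, as did those of Gsr and Txnrd1, with the first above the second in 7 and 5 of 8 mice. At the low end stood Srxn1, the sulfiredoxin that restores over-oxidised peroxiredoxins, at 23.1 ± 5.26 CPM and Gclc, the catalytic subunit of glutamate-cysteine ligase, at 18.3 ± 2.95 CPM, also with overlapping ranges. Hmox1, the inducible haem oxygenase, was the lowest at 5.01 ± 2.25 CPM and rank 9326. The subunit genes of glutamate-cysteine ligase thus differed in counted level, with Gclm above Gclc in all 8 untreated samples. How far counting near the 3′ end differs between genes was not tested.

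**Figure D1:**
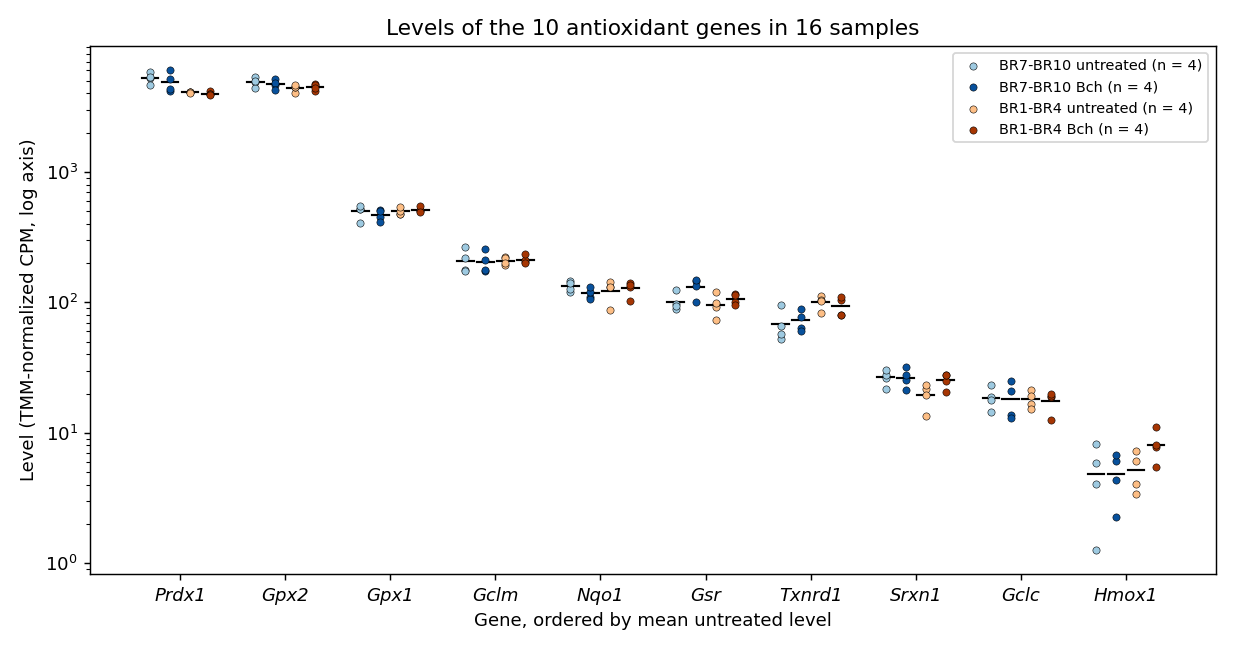
Levels of the 10 genes in TMM-normalized CPM on a log axis, with 1 point per sample, 4 samples per group and a bar at each group mean. Prdx1 and Gpx2 lie near 4673 and 4631 CPM and Hmox1 near 5.01 CPM.

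Part of the sequence of Prdx1 and Gpx2 is shared with other genes. Of the 65-base stretches in the last 400 bases of their transcripts, 18.3% for Prdx1 also occurred in Gm21399 or Gm7204 and 5.95% for Gpx2 also occurred in Gpx2-ps1, so that their levels are uncertain to the extent that counting split such reads. For the other 8 genes no such stretch was shared. Overlapping genes are annotated on the same strand for Gclm (Gm6061), Txnrd1 (Eid3) and Gsr (Gm24727), and on the opposite strand for Gpx2 (Fntb), Gclm (Gm17494) and Txnrd1 (Gm38560 and Gm47073).

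None of the 10 genes changed with Bch past the threshold, an adjusted p of 0.05, in either set of mice. In BR7-BR10, 4 genes were higher and 6 were lower, with log2 fold changes from -0.18 for Nqo1 to 0.37 for Gsr and a median of -0.037, against -0.0022 over all genes tested. In BR1-BR4, 7 were higher and 3 were lower, from -0.093 for Txnrd1 to 0.51 for Hmox1, with a median of 0.029 against 0.0012. All fold changes are on the log2 scale from edgeR's quasi-likelihood test with the mouse as a block. In BR7-BR10 this test called 0 of 9515 genes (0%), with 360 (3.78%) at an unadjusted p under 0.05, of which 1 was among the 10 genes, while DESeq2 called 0 with 123 at an unadjusted p under 0.05. In BR1-BR4 it called 2 of 9509 genes (0.021%), with 734 (7.72%) at an unadjusted p under 0.05 and 0 of the 10 among them, and DESeq2 called 14 genes and again 0 of the 10. Over all 8 mice, edgeR called 0 of 10280 genes (0%), with 555 (5.4%) at an unadjusted p under 0.05, 1 of them among the 10, and DESeq2 called 0 with 366 at an unadjusted p under 0.05. The 95% confidence intervals bound what the fits leave possible: across 9 of the genes in BR7-BR10 the bounds lay between -0.60 and 0.68, and for Hmox1 between -0.82 and 1.04. For all 10 genes the untreated and Bch-treated ranges overlapped in both sets, while they did not overlap for 2.22% of all genes tested in BR7-BR10 and 2.89% in BR1-BR4. Within mice, between 4 and 7 of the 10 genes were higher with Bch, 4 in BR7, BR8 and BR10, 5 in BR9, 6 in BR1, BR2 and BR3 and 7 in BR4. Of all genes tested, 47.2%, 56.0%, 51.4% and 45.9% were higher with Bch in BR7, BR8, BR9 and BR10. In BR1, BR2, BR3 and BR4 the shares were 47.7%, 51.8%, 55.6% and 50.5%. Leaving out 1 mouse moved the log2 fold change by over 1.5 times for 9 of the 10 genes in BR7-BR10, turning the sign of 6, and for 10 in BR1-BR4, turning the sign of 2.

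**Figure D2:**
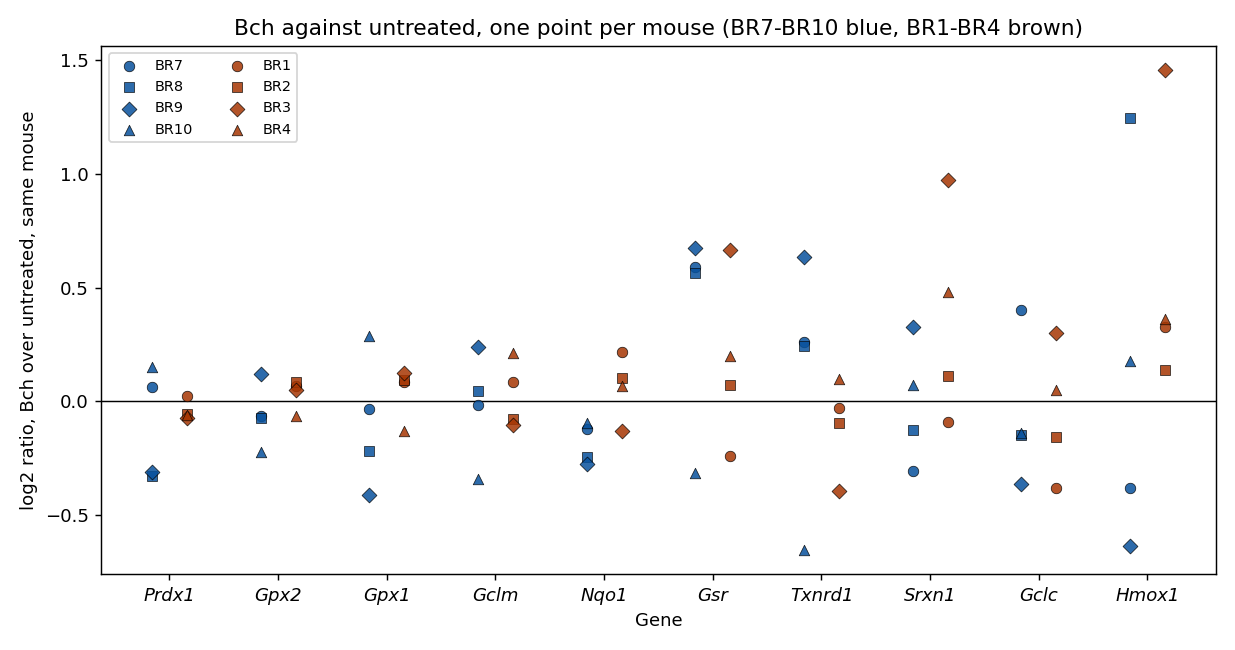
Log2 ratio of Bch over untreated for each of the 10 genes, with 1 point per mouse, BR7-BR10 in blue and BR1-BR4 in brown and a line at 0. For Gsr, 3 of the blue points lie between 0.56 and 0.67 and BR10 lies at -0.32, and for Nqo1 all 4 blue points lie under 0.

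Glutamate-cysteine ligase, which carries out the first step of glutathione synthesis, had genes whose levels differed with Bch by less than the spread between mice. Gclm (chr3:122245557-122270732, GRCm38) had 177, 173, 218 and 266 CPM in untreated BR7, BR8, BR9 and BR10 and 175, 178, 258 and 210.0 CPM with Bch. In BR1, BR2, BR3 and BR4 it had 192, 223, 217 and 201 CPM untreated and 204, 212, 202 and 233 CPM with Bch. The groups overlapped in both sets, with log2 fold changes of -0.016 (95% confidence interval -0.29 to 0.26) in BR7-BR10 and 0.027 (-0.17 to 0.23) in BR1-BR4. Gclc (chr9:77754535-77794485) had 18.8, 23.3, 17.8 and 14.5 CPM in untreated BR7 to BR10 and 25.2, 20.9, 13.6 and 13.1 CPM with Bch. In BR1 to BR4 its levels were 16.7, 21.2, 15.2 and 19.2 CPM untreated and 12.6, 18.9, 19.0 and 19.8 CPM with Bch. The log2 ratio of Gclc was 0.40 in BR7 and 0.30 in BR3 but -0.36 in BR9 and -0.38 in BR1, so that the mice of each set went both ways. Its log2 fold changes of -0.081 (SE 0.26) and -0.085 (SE 0.25) rest on 9 to 87 UMIs per sample.

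Gsr, which uses NADPH to return oxidised glutathione to its reduced form, had the largest shift with Bch of the 10 genes in BR7-BR10. Gsr (chr8:33652523-33698163) had 96.7, 89.4, 93.5 and 125 CPM in untreated BR7, BR8, BR9 and BR10 and 146, 133, 149.7 and 100.1 CPM with Bch. It was higher with Bch in BR7, BR8 and BR9 and lower in BR10, which had both the highest untreated and the lowest Bch level of the set, so that the groups overlapped. The log2 fold change was 0.37 (SE 0.15, 95% confidence interval 0.064 to 0.68), with an unadjusted p of 0.0188 and an adjusted p of 0.999 from edgeR. Without BR10 it was 0.61, with an unadjusted p of 6.57e-05 and an adjusted p of 0.114, which also did not pass. Without BR7, BR8 or BR9 it was 0.30, 0.33 and 0.27, with unadjusted p-values of 0.0949, 0.0876 and 0.126, and DESeq2 gave 0.37 with an unadjusted p of 0.0641. In BR1-BR4, Gsr had 119, 91.5, 72.9 and 98.3 CPM untreated and 100.5, 96.2, 116 and 113 CPM with Bch in BR1, BR2, BR3 and BR4. It was higher in 3 of these 4 mice and lower in BR1. The fitted difference was 0.12 (-0.14 to 0.38) on the log2 scale, and leaving out 1 mouse moved it from 0.013 without BR3 to 0.25 without BR1. Over all 8 mice it was higher in 6 of 8, with a log2 fold change of 0.25 (SE 0.10, 95% confidence interval 0.046 to 0.46, edgeR unadjusted p = 0.0178, adjusted p = 0.902). With 1 mouse left out it was 0.19 to 0.33, with unadjusted p-values from edgeR of 0.00196 to 0.0883.

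The glutathione peroxidases Gpx1 and Gpx2, which spend glutathione on hydroperoxides, differed with Bch by less than the spread between mice. Gpx2 (chr12:76792333-76795554) had 5339.6, 4862, 4382 and 4965 CPM in untreated BR7 to BR10 and 5105, 4617, 4759.8 and 4251 CPM with Bch. In BR1 to BR4 it had 3995, 4447, 4468 and 4593 CPM untreated and 4184, 4718, 4619 and 4395 CPM with Bch. The log2 fold changes were -0.058 (95% confidence interval -0.40 to 0.28) and 0.023 (-0.17 to 0.21). The groups overlapped in both sets, and the spread between mice was 5.33% to 8.07% of the mean in each group. Gpx1 (chr9:108338903-108340343) ranged from 408 to 552 CPM in untreated BR7-BR10 and from 415 to 511 CPM with Bch. It ranged from 473 to 542 CPM in untreated BR1-BR4 and from 495 to 547 CPM with Bch, with log2 fold changes of -0.091 (SE 0.14) and 0.030 (SE 0.090). Gpx1 was lower with Bch in 3 of 4 mice of BR7-BR10 and higher in 3 of 4 of BR1-BR4, and neither change passed the test.

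Of the thioredoxin arm, Txnrd1 passes electrons from NADPH to thioredoxin, Prdx1 spends them on peroxides, and Srxn1 repairs Prdx1. Txnrd1 (chr10:82833951-82897712) had 52.7, 65.5, 56.9 and 95.6 CPM in untreated BR7, BR8, BR9 and BR10 and 63.4, 77.8, 88.9 and 60.4 CPM with Bch. As for Gsr, it was higher with Bch in BR7, BR8 and BR9 and lower in BR10. The log2 fold change of 0.11 (95% confidence interval -0.25 to 0.46) came to 0.38 without BR10, with an unadjusted p of 0.0347 and an adjusted p of 0.680 from edgeR, and to -0.078 without BR9. In BR1 to BR4, Txnrd1 had 82.3, 112, 105 and 102 CPM untreated and 80.6, 105, 79.6 and 109.7 CPM with Bch, lower in 3 of 4 mice by a log2 fold change of -0.093 (-0.35 to 0.16).

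Prdx1 (chr4:116685544-116700822) had 5791, 5211, 5345 and 4649 CPM in untreated BR7, BR8, BR9 and BR10 and 6042, 4156, 4304 and 5166 CPM with Bch. It was higher in BR7 and BR10 and lower in BR8 and BR9, and the log2 fold change was -0.10 (95% confidence interval -0.45 to 0.25), or -0.20 without BR10 and -0.0054 without BR8. In BR1-BR4 the levels lay close together, at 4093, 4112, 4127 and 4058 CPM untreated and 4159, 3952, 3925 and 3893 CPM with Bch, with a log2 fold change of -0.053 (-0.24 to 0.13). The standard deviation was 0.729% of the mean in untreated BR1-BR4 and 8.97% in untreated BR7-BR10. The first value is smaller than the counting error of these samples, at 2436 to 8805 UMIs, and does not measure the spread between mice. Srxn1 (chr2:152105516-152111376) ranged from 21.9 to 30.5 CPM in untreated BR7-BR10 and from 21.1 to 32.1 CPM with Bch. In BR1-BR4 it ranged from 13.6 to 23.2 CPM untreated and from 20.5 to 27.8 CPM with Bch, higher in 3 of 4 mice. The log2 fold change in BR1-BR4 of 0.30 (SE 0.23) did not pass the test, and without BR3, whose untreated sample held 8 UMIs of Srxn1, it was 0.18, and without BR1 it was 0.44.

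Nqo1, which reduces quinones with NADPH, was the only one of the 10 genes that was lower with Bch in all 4 mice of BR7-BR10. Nqo1 (chr8:107388225-107403206) had 119, 126, 147 and 140.4 CPM in untreated BR7, BR8, BR9 and BR10 and 109.7, 106, 121 and 131 CPM with Bch. The untreated and Bch-treated ranges overlapped, and 5.76% of all genes tested were lower in 4 of 4 mice of this set. The log2 fold change was -0.18 (SE 0.14, 95% confidence interval -0.47 to 0.10, edgeR adjusted p = 0.999). In BR1, BR2, BR3 and BR4, Nqo1 had 87.9, 131, 144 and 131 CPM untreated and 102, 140.2, 132 and 137 CPM with Bch, higher in 3 of 4 mice, and the log2 fold change was 0.062 (-0.17 to 0.29).

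Hmox1, which breaks down haem, was higher with Bch in all 4 mice of BR1-BR4, as were 8.59% of all genes tested in this set. Hmox1 (chr8:75093621-75100589) had 6.04, 7.29, 3.39 and 4.03 CPM in untreated BR1, BR2, BR3 and BR4 and 7.82, 8.11, 11.0 and 5.46 CPM with Bch, and the groups overlapped. The log2 fold change was 0.51 (SE 0.41, 95% confidence interval -0.32 to 1.33, edgeR adjusted p = 0.855), and 0.31 to 0.67 with 1 mouse left out, lowest without BR3. In BR7 to BR10 the levels were 8.16, 1.26, 4.07 and 5.86 CPM untreated and 6.04, 4.33, 2.27 and 6.76 CPM with Bch, higher in 2 mice and lower in 2, with a log2 fold change of 0.11. Hmox1 was counted by 2 to 22 UMIs per sample, and the untreated samples of BR3 and BR8, the mice with the highest ratios, held 2 UMIs each. The ratio of Bch over untreated was 3.25 in BR3 (exact 95% counting interval 0.799 to 28.5) and 3.44 in BR8 (0.824 to 30.6), intervals that include no change, cover counting error only and take summed UMIs as independent, and would be too narrow where molecules were counted in both technical replicates. The fitted interval of Hmox1 in BR1-BR4, -0.32 to 1.33, also includes no change and carries the spread between mice as well as counting error. The part of depth in its width was not tested.

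**Figure D3:**
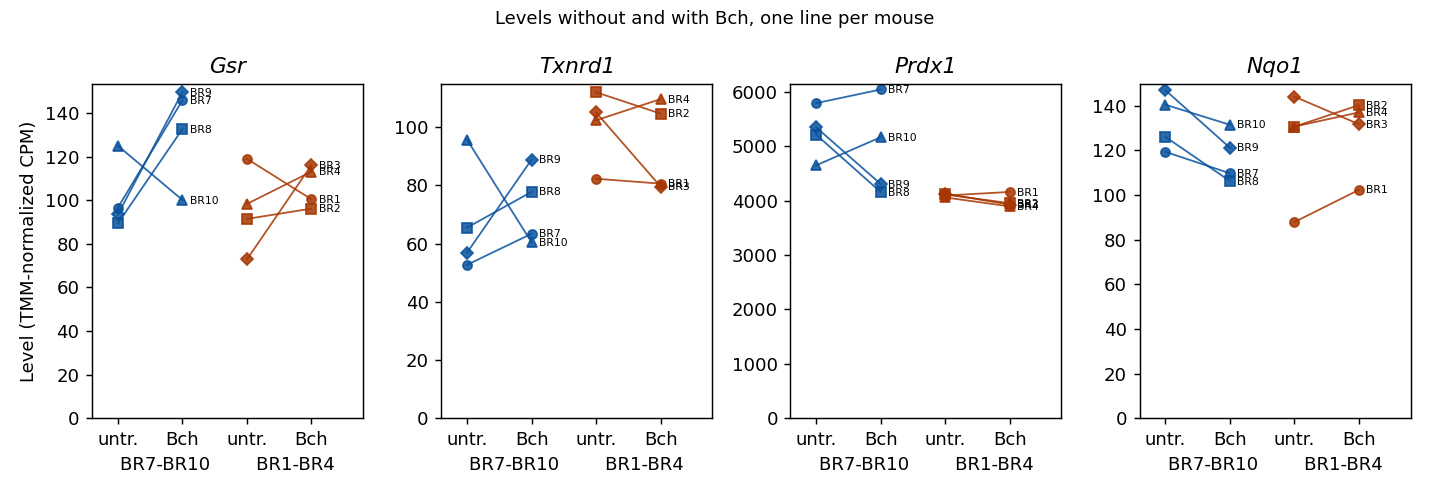
Levels of Gsr, Txnrd1, Prdx1 and Nqo1 in TMM-normalized CPM without and with Bch, with 1 line per mouse, BR7-BR10 in blue and BR1-BR4 in brown. The lines of BR7, BR8 and BR9 slope up for Gsr and Txnrd1 and that of BR10 slopes down, and the 4 brown Prdx1 lines stay between 3893 and 4159 CPM.

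Whether Bch acted differently in the 2 sets was tested by the interaction of set and treatment. edgeR called 0 of 10280 genes (0%), with 451 (4.39%) at an unadjusted p under 0.05 and 0 of the 10 among them, and DESeq2 called 0 with 238 at an unadjusted p under 0.05. The change in BR7-BR10 minus that in BR1-BR4 was 0.24 for Gsr (95% confidence interval -0.18 to 0.66), 0.20 for Txnrd1 (-0.25 to 0.64) and -0.25 for Nqo1 (-0.60 to 0.11). The largest difference, -0.41 for Hmox1, had an interval from -1.68 to 0.87 and was -0.74 to -0.15 with 1 mouse left out. Without BR10 the differences were 0.48 for Gsr (unadjusted p = 0.0148) and 0.48 for Txnrd1 (unadjusted p = 0.0240), with adjusted p-values from edgeR of 0.597 and 0.637. With any other mouse left out the difference was smaller than these, down to 0.13 for Gsr without BR1 and 0.021 for Txnrd1 without BR9.

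Between the untreated samples of the 2 sets, edgeR called 150 of 9159 genes (1.64%), 0 of the 10 among them. At an unadjusted p under 0.05 there were 1164 genes (12.7%), of which 2, Txnrd1 and Prdx1, were among the 10, and DESeq2 called 187 genes and also 0 of the 10. Txnrd1 was 100.4 ± 12.8 CPM (SD, n = 4) in BR1-BR4 and 67.7 ± 19.4 CPM in BR7-BR10. The lowest sample of BR1-BR4, at 82.3 CPM, was above 3 of the samples of BR7-BR10 and below BR10 at 95.6 CPM. The log2 fold change was 0.56 (SE 0.17, 95% confidence interval 0.20 to 0.91, edgeR unadjusted p = 0.00293, adjusted p = 0.105). Without BR10 it was 0.77 and passed with an adjusted p of 0.0108, and with counts thinned to the depth of the shallowest sample it was 0.81 and passed with an adjusted p of 0.0257. Prdx1 went the other way, at 4098 ± 29.9 CPM in BR1-BR4 and 5249 ± 471 CPM in BR7-BR10. Its untreated ranges did not overlap, as for 7.98% of all genes tested, with a log2 fold change of -0.35 (SE 0.13, edgeR unadjusted p = 0.0142, adjusted p = 0.233). With Bch the ranges of Prdx1 overlapped, since BR8 with 4156 CPM was below BR1 with 4159 CPM, and 7.4% of all genes tested had ranges of the sets that did not overlap with Bch. The other 8 genes had log2 fold changes from -0.39 for Srxn1 to 0.14 for Hmox1. With thinned counts Srxn1 came to -0.999 (unadjusted p = 0.00459, edgeR adjusted p = 0.130) and Gclc went from 0.011 to 0.51 (adjusted p = 0.616).

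**Figure D4:**
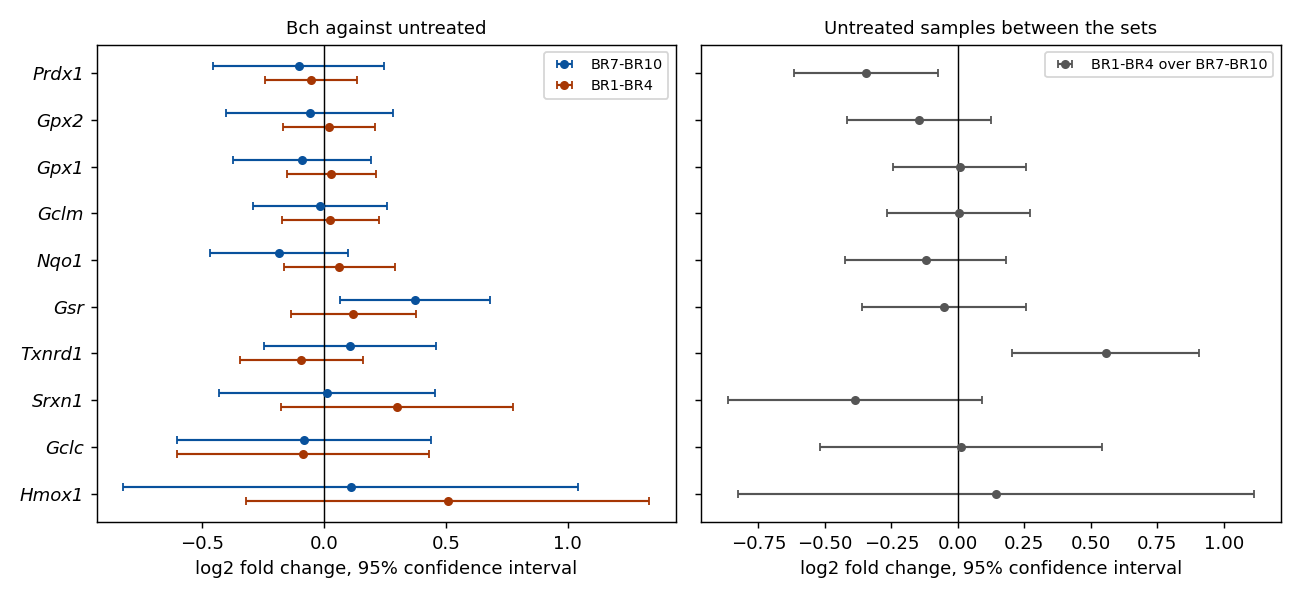
Log2 fold changes of the 10 genes with 95% confidence intervals from edgeR, for Bch against untreated in BR7-BR10 (blue) and BR1-BR4 (brown) on the left, and for untreated BR1-BR4 over untreated BR7-BR10 on the right. On the left the interval of Gsr in BR7-BR10, 0.064 to 0.68, is the only one that leaves out 0, and on the right those of Prdx1 and Txnrd1 do.

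Cell type markers moved with this comparison of sets. All 10 tested colonocyte markers were lower in untreated BR1-BR4, with a median of -0.72 on the log2 scale, and Aqp8 and Guca2b passed the test. Of 10 tested crypt stem cell markers, 9 were higher, with a median of 0.45, and Ascl2 and Axin2 passed the test. Of 6 tested enteroendocrine markers 5 were lower, with a median of -0.88, and of 10 goblet cell markers 8 were lower, with a median of -0.33, and none of either list passed. Sex-linked genes also differed. Xist had 44.7 to 162 CPM in untreated BR7-BR10 and 13.6 to 24.5 CPM in untreated BR1-BR4 (log2 fold change -2.41, edgeR adjusted p = 0.0252). The Y-linked gene Eif2s3y had 4.39 to 8.64 CPM and 37.2 to 52.5 CPM (2.76, adjusted p = 1.33e-07). The part of these genes in the levels of Txnrd1 and Prdx1 was not tested, and in sorted bulk samples fewer cells of a type and less RNA per cell cannot be told apart.

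Genes of the wider pathway did not pass the test with Bch either. Lists of NRF2 regulators, cystine uptake and glutathione turnover, other glutathione peroxidases with glutaredoxins and prostaglandin E synthases, glutathione S-transferases, other thioredoxins and peroxiredoxins with sestrins and methionine sulfoxide reductases, superoxide dismutases and catalase, NADPH supply, detoxification and iron handling genes known as NRF2 targets, and selenoproteins with the factors of selenocysteine synthesis and insertion held 115 tested genes in BR7-BR10, 113 in BR1-BR4 and 118 over 8 mice and for the interaction, and 0 of them passed. Over all genes 0%, 0.021%, 0% and 0% passed, so that a count of 0 is also that of the background. Nfe2l2, the gene of NRF2 itself, had 57.9 to 92.6 CPM in untreated BR7-BR10 and 71.4 to 96.6 CPM with Bch, and 80.2 to 104 CPM in untreated BR1-BR4 and 83.0 to 102 CPM with Bch. Its groups overlapped in both sets, with log2 fold changes of 0.16 (SE 0.16) and 0.035 (SE 0.13). Of 13 tested regulators, 8 were higher with Bch in BR7-BR10 and 7 in BR1-BR4, with medians of 0.13 and 0.035. Those with the smallest p were Keap1 in BR7-BR10 (log2 fold change 0.44, unadjusted p = 0.0550, edgeR adjusted p = 0.999) and Bach1, a repressor at antioxidant response elements, in BR1-BR4 (-0.60, unadjusted p = 0.0710, adjusted p = 0.714).

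Of 9 tested genes of cystine uptake and glutathione turnover, 6 were higher with Bch in BR7-BR10 and 4 in BR1-BR4. Gss, which adds glycine in the last step of glutathione synthesis, had 272 ± 15.7 CPM in untreated BR1-BR4 and 226 ± 12.2 CPM with Bch (SD, n = 4), lower in 4 of 4 mice, as were 6.71% of all genes tested. The untreated samples, at 254 to 286 CPM, did not overlap those with Bch, at 209.9 to 239 CPM, as for 2.89% of all genes tested. Its log2 fold change of -0.28 (SE 0.093, unadjusted p = 0.00440) did not pass, with an adjusted p of 0.319 from edgeR. Of 22 tested glutathione S-transferases, 14 were higher with Bch in BR1-BR4, and of 23 in BR7-BR10, 7 were. Gstp1 had the smallest p of this list in BR1-BR4, with a log2 fold change of 0.30 (unadjusted p = 0.00597, edgeR adjusted p = 0.358), and Gstm4 had it in BR7-BR10, with 0.60 (unadjusted p = 0.105). Slc3a2, the heavy chain of the cystine transporter, had the smallest p of the turnover list in BR7-BR10, with -0.25 (unadjusted p = 0.0697) and lower levels in 4 of 4 mice, as for 5.76% of all genes tested.

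The remaining lists went both ways with Bch, and in each the gene with the smallest p missed the threshold. Of a list of other glutathione peroxidases, glutaredoxins and the prostaglandin E synthases Ptges and Ptges2, 3 of 7 were higher in BR7-BR10 and 5 of 6 in BR1-BR4, with the smallest p for Ptges (0.87, unadjusted p = 0.0718) and Gpx4 (0.14, unadjusted p = 0.161). Of the thioredoxins, other peroxiredoxins, sestrins and methionine sulfoxide reductases, 2 of 15 were higher in BR7-BR10 and 8 of 15 in BR1-BR4, led by the methionine sulfoxide reductases Msrb2 (-0.74, unadjusted p = 0.0954) and Msra (0.36, unadjusted p = 0.0490). Catalase, Cat, led its list in both sets with 0.31 and 0.22 (unadjusted p = 0.172 and 0.389), and 2 of 4 genes of that list were higher in each set. Of the genes that supply NADPH, 5 of 9 were higher in each set, with the smallest p for the transketolase Tkt (0.11, unadjusted p = 0.427) and malic enzyme Me1 (0.84, unadjusted p = 0.0958). Of the detoxification and iron handling genes, 8 of 18 were higher in BR7-BR10 and 11 of 18 in BR1-BR4, led by the carbonyl reductase Cbr1 (-0.13, unadjusted p = 0.322) and ferritin light chain Ftl1 (0.20, unadjusted p = 0.0490). Of the genes of selenoproteins and of selenocysteine synthesis and insertion, 13 of 17 and 10 of 17 were higher, led by the insertion factor Trnau1ap (-0.30, unadjusted p = 0.0576) and the selenoprotein Selenok (-0.22, unadjusted p = 0.0416). The values in parentheses are log2 fold changes, first in BR7-BR10 and then in BR1-BR4. Of the cell type marker lists 0 genes passed with Bch in either set, where 0% and 0.021% of all genes did. In BR7-BR10 and BR1-BR4, 7 of 11 and 6 of 11 tested crypt stem cell markers were higher with Bch, as were 5 of 10 and 4 of 8 colonocyte markers and 3 of 6 and 3 of 5 enteroendocrine markers. Goblet cell markers were higher for 8 of 10 in BR7-BR10, with a median of 0.22, and for 4 of 9 in BR1-BR4, with a median of -0.047. Dissociation and stress genes were higher for 5 of 10 in BR7-BR10 and 0 of 8 in BR1-BR4, with medians of 0.044 and -0.20. The smallest p of the stem cell markers was that of Ascl2 in BR7-BR10 (log2 fold change -0.32, unadjusted p = 0.0215, lower in 4 of 4 mice) and of Lgr5, the gene the sort follows, in BR1-BR4 (-0.66, unadjusted p = 0.00581, lower in 3 of 4 mice), with edgeR adjusted p-values of 0.999 and 0.358. In BR7-BR10 the smallest p of the enteroendocrine, goblet cell and colonocyte markers was that of Gcg (-0.81), Fcgbp (0.77) and Selenbp1 (0.57). Their edgeR adjusted p-values were 0.177, 0.539 and 0.539. In that set Ascl2 and Gcg were lower in 4 of 4 mice, as were 5.76% of all genes tested. In BR1-BR4 the smallest p of the goblet cell and colonocyte markers was that of Spink4 (-0.38, adjusted p = 0.116) and Car1 (-0.41, adjusted p = 0.195). The part of these genes in the values of the 10 genes with Bch was not tested.

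Between the untreated sets, 6 of 113 tested genes of these lists (5.31%) passed the test, against 1.64% of all genes tested. These lists were chosen with earlier results of these data known, so that the higher share is a description and no test of them. Slc3a2 had 321 ± 38.7 CPM in BR1-BR4 and 208 ± 18.4 CPM in BR7-BR10, a log2 fold change of 0.65 (SE 0.12, edgeR adjusted p = 0.00209). Chac1, which degrades glutathione, had 88.2 ± 25.6 and 31.2 ± 8.85 CPM, a log2 fold change of 1.47 (SE 0.21, edgeR adjusted p = 9.46e-05). Cth, which makes cysteine from cystathionine, had 89.1 ± 8.39 and 49.7 ± 9.70 CPM, a log2 fold change of 0.85 (SE 0.17, edgeR adjusted p = 0.00410). The 3 that passed in the other direction were glutathione S-transferases, lower in BR1-BR4: Gsta1 by -1.62, Gstm1 by -0.64 and Gstp1 by -0.61 on the log2 scale, with edgeR adjusted p-values of 0.0225, 0.00796 and 0.0148. Of the 21 tested glutathione S-transferases 18 were lower in BR1-BR4, with a median of -0.28 against 0.016 over all genes tested. Of 65-base stretches at the 3′ end, 82.1% for Gsta1, 74.7% for Gstp1 and 20.8% for Gstm1 also occurred in other genes, among them Gsta2, Gstp2 and Gstm3, so that their counts are uncertain.

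Correlations among the 10 genes went both ways from sample to sample. Over the 16 samples, with the mean of each set taken out, the 45 pairs of the 10 genes had a median Pearson correlation of 0.066 in log2 CPM, against 0.0097 over all pairs of tested genes, and 25 pairs were positive. The highest values were 0.67 for Gpx1 with Prdx1 and 0.65 for Gclm with Txnrd1, and the lowest was -0.75 for Gpx1 with Txnrd1. The ligase subunits Gclc and Gclm had -0.57. The genes most like Gclc in this measure were Pomgnt1 (0.85), Huwe1 (0.85) and Vopp1 (0.83). Those most like Gpx2 were Gcg (0.80), Ccl9 (0.78) and Scgn (0.76), and those most like Nqo1 were Ilkap (0.82), Rnf168 (0.81) and Rbm48 (0.81), each out of 10280 genes. The 99th percentile over all tested genes was 0.64 for Gclc, 0.58 for Gpx2 and 0.62 for Nqo1. Gcg had 107 ± 143 CPM in untreated BR7-BR10, and whether its correlation rests on 1 mouse was not tested. These correlations share the libraries and their depth and are given as a description.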

How the data were processed

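RNA of sorted Lgr5-EGFP+ cells was measured in 32 libraries of 8 mice. Per the methods of the study, the authors primed cDNA with oligo-dT carrying sample barcodes and UMIs, and the Drop-seq pipeline made the deposited table of raw UMI counts per gene, without normalization, from reads aligned to GRCm38 with a GENCODE annotation. The notes of the submitters list GRCh38 as the build, while the genes are mouse genes. The use of strand and the handling of reads that match several genes were not given in the sources used here. For technical replicate 2, 1520 genes were blank, with at most 12 UMIs in replicate 1, and were read as 0.

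Groups came from the labels. The technical replicates differed by less than sampling noise for most genes (median squared standardized difference 0.210 to 0.322 against 0.455 for Poisson counts), though a subset differed strongly, and were summed and counted as 1 sample. The genes and lists were chosen with earlier results of these data known. All 10 genes were named; of the other pathway lists, genes past the threshold in any comparison and the gene with the smallest p for Bch in each set were named, with Nfe2l2 added as the factor itself. The genes most like Gclc, Gpx2 and Nqo1 were the 3 with the highest Pearson correlation.

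The main test was that of edgeR 4.0.16, with limma 3.58.1, under R 4.3.3, after filterByExpr with a minimum count of 10, TMM normalization, robust quasi-likelihood fits on all genes that passed, with mouse as a block and treatment as the effect, and Benjamini-Hochberg adjustment at 0.05. The untreated sets were compared without a block. Confidence intervals cover 95%. Levels were computed as CPM from TMM-scaled totals, and a prior count of 2 was added for the log2 ratio of a mouse. The steps were tested on simulated data with true log2 changes of 1 or 2. Of changes of 1, 66% were called in BR7-BR10, 65% in BR1-BR4, 84% over 8 mice and 44% for the interaction. Smaller changes, such as those fitted for the 10 genes, were not simulated. The pairing comes from the labels, where untreated and Bch-treated samples with 1 number are from 1 mouse. The deviations of the pairs from their group means had correlations over 10280 genes of 0.0715, 0.151, 0.00341 and -0.0202 in BR7 to BR10 and of 0.245, 0.0329, 0.0617 and 0.0840 in BR1 to BR4. Alternatives were no block, DESeq2 1.42.0, median-of-ratios size factors, no filter, each technical replicate alone, thinning to 557512 UMIs, leaving out each mouse and, chosen after seeing the data, the mean of the technical replicates. Gene positions and transcripts came from a GENCODE annotation of GRCm38, promoters from RefSeq. Figures were drawn with matplotlib 3.10.9 in Python 3.11.15.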

Additional observations from a re-analysis of the deposited data

Results flagged for a closer look

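In groups of 4, a sample was marked where its gap to the nearest other exceeded Dixon's 95% critical value as a share of the range of the group. Of 60 groups of levels or ratios of the 10 genes, 5 were marked, and chance marks about 1 in 20. Gsr had a log2 ratio of Bch over untreated of -0.317 in BR10, against 0.564 to 0.673 in BR7, BR8 and BR9. Hmox1 had a log2 ratio of 1.46 in BR3, against 0.137 to 0.361 in the other mice of BR1-BR4. Gpx1 had a log2 ratio of -0.132 in BR4, against 0.0837 to 0.126 in BR1, BR2 and BR3. Prdx1 had a log2 ratio of 0.0230 in BR1, against -0.0725 to -0.0572 in BR2, BR3 and BR4. Gclc had 12.6 CPM in BR1 with Bch, against 18.9 to 19.8 CPM in the other Bch-treated samples of BR1-BR4. What set these samples apart was not tested.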

How the results depend on the processing

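None of the 10 genes passed the threshold with Bch, or for the interaction, under any alternative that gave an adjusted p. DESeq2 gave none for Nqo1, Gclc, Txnrd1, Hmox1, Srxn1 and Gsr with Bch in BR1-BR4, where the unadjusted p was 0.315 to 0.805, nor for Hmox1 between the untreated sets. Counts of genes past the threshold for Bch in BR1-BR4, 2 as reported, were 0 without the replicate block of mouse, 14 with DESeq2, 88 without the filter, 9 with technical replicate 1 alone, 5 thinned and 0 to 19 with 1 mouse left out (19 without BR4). The fit without the block, that is without the pairing by mouse, called 0 genes for Bch in BR7-BR10, over 8 mice and for the interaction as well, and changed no other call. For Bch in BR7-BR10 leaving out a mouse gave 0 to 4 genes (3, 4 and 1 without BR8, BR9 and BR10). Over 8 mice there were 15 genes without the filter, 1 with technical replicate 1 alone and 0 to 1 with a mouse left out, and for the interaction 1 without the filter. Between the untreated sets, 150 as reported, there were 234 genes without the filter, 88 thinned and 74 to 210 with a mouse left out (74 without BR2). There, 1 of the 10 genes, Txnrd1, passed when thinned, and 0 to 1 did with a mouse left out, Txnrd1 without BR10. Of 29 log2 fold changes reported for the 10 genes, 12 changed sign under some alternative. For Bch in BR7-BR10, Gclm came to 0.037 with technical replicate 1 alone, 0.15 thinned and 0.00078 with the mean of the technical replicates, Txnrd1 to -0.0017 with technical replicate 1 alone and Hmox1 to -0.062 without the block. For Bch in BR1-BR4, thinning gave -0.076 for Nqo1 and -0.11 for Gclm, and technical replicate 1 alone gave 0.024 for Txnrd1. For the interaction, technical replicate 1 alone gave -0.029 for Txnrd1. Leaving out a mouse gave ranges in BR7-BR10 of -0.23 to 0.018 for Gpx1, -0.22 to 0.016 for Gclc, -0.10 to 0.090 for Gclm, -0.078 to 0.38 for Txnrd1 and -0.22 to 0.35 for Hmox1. In BR1-BR4 it gave -0.16 to 0.011 for Gclc and -0.035 to 0.077 for Gclm, and between the untreated sets -0.13 to 0.44 for Hmox1 and -0.12 to 0.14 for Gclc. Of the 21 log2 fold changes of the 10 genes that are not printed, 53 of 323 values under alternatives changed sign and 0 passed the threshold. Hmox1 gave no value where it was filtered out, nor did Gclc with thinned counts for Bch in BR7-BR10. The cause of these differences was not tested. Hmox1, Srxn1 and Gclc had the fewest UMIs, with 2, 8 and 9 in their lowest samples, and the part of depth in their values was not tested.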
